A study of Mus musculus with 4 samples.

Results

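The 8 iron handling genes Slc40a1, Hmox1, Fth1, Ftl1, Tfrc, Slc11a1, Cp and Trf were followed across the cell classes of gonadal white adipose tissue from aged mice. They were chosen by gene symbol, each symbol matched 1 row, and they are 8 of the 31054 genes measured. The cells came from male p16-CreERT2/R26-LSL-tdTomato mice aged 18 months that had been given tamoxifen intraperitoneally. In these mice the promoter of p16, the cell cycle inhibitor encoded by Cdkn2a, drives a tamoxifen-dependent Cre recombinase, and recombination turns on the red protein tdTomato (Tom) for the rest of the cell's life. Tom therefore marks cells that had p16 promoter activity when tamoxifen was given. The stromal vascular fraction, which is adipose tissue without its mature adipocytes, was freed with Liberase, cleared of red cells by lysis and sorted by CD45 and Tom into 4 libraries, a Tom+ and a Tom- library labelled CD45- and a Tom+ and a Tom- library labelled CD45+. Where a value is given for each of the 4, the Tom+ and then the Tom- library labelled CD45- come first, followed by the Tom+ and the Tom- library labelled CD45+. All 4 share genotype, age, sex and tamoxifen, so no library lacks the transgenes or the drug. The number of mice behind each library is not given in the sources used here. With 1 library per group there are no replicates and no test. Every difference below is between libraries or between cell classes. Classes were compared within a library or by their values over libraries.

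Iron enters most cells as transferrin-bound iron through the transferrin receptor, is stored inside ferritin, a shell built of heavy and light chains, and leaves through ferroportin, the only known cellular iron exporter of mammals. Tissue macrophages take in haem with dead cells, break it down with haem oxygenase and either store the iron or release it. When iron is scarce, iron regulatory proteins bind hairpins called iron responsive elements (IREs), which blocks translation of messages that carry the hairpin in the 5′ untranslated region (UTR) and steadies messages that carry it in the 3′ UTR. RNA levels therefore show one layer of control only, and none of the values below measures protein or iron.

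The hairpins are shown because they divide the members by how their messages are read. The transcripts of the GENCODE annotation (GRCm38, mm10) were searched on the transcript strand for a C, then 5 bases, the loop CAGTGN with N other than G, and 5 bases that pair with the first 5, G-T pairs allowed. Windows of 29 bases are printed 5′ to 3′ on the transcript strand, with the 6 bases of the loop in capitals.
Fth1, 5′ UTR, exon 1, chr19:9982732-9982760, + strand: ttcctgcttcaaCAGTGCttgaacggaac
Ftl1, 5′ UTR, exon 1, chr7:45459779-45459807, - strand: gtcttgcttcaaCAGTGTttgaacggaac
Slc40a1, 5′ UTR, exon 1, chr1:45925465-45925493, - strand: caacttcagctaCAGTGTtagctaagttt
Tfrc, 3′ UTR, exon 19, chr16:32631219-32631247, + strand: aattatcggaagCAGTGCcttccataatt
Tfrc, 3′ UTR, exon 19, chr16:32631598-32631626, + strand: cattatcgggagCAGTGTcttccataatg
Tfrc, 3′ UTR, exon 19, chr16:32631663-32631691, + strand: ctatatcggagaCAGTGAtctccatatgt
Tfrc, 3′ UTR, exon 19, chr16:32631710-32631738, + strand: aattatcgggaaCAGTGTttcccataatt
Such a match was present in the 5′ UTR of 23 of 20900 genes, or 0.11%, and 3 of those genes were members, the ferritin chains and ferroportin. In the 3′ UTR it was present in 100 of 21022 genes, or 0.476%, and 1 of those was a member, Tfrc, with 4 matches. The letters searched were not found in the UTRs of Hmox1, Slc11a1, Cp or Trf. A match describes the sequence and does not show that a protein binds there.

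The 4 libraries gave 1927 to 4391 cells after filtering, 13878 in all, with a median of 18331 to 19502 unique molecular identifiers (UMIs, each standing for 1 captured RNA molecule) per cell. Barcode sequences were shared between libraries. The 2 Tom- libraries had 4394 listed barcodes in common, of which 10 passed the filters in both, and 11.5% to 38.6% of the kept cells of a library had a barcode listed in another library. The tdTomato transcript separated the sorts: lipid-associated macrophages, for example, held 598 and 552 counts per 1000000 UMIs (CPM) in the Tom+ libraries and 19.4 and 15.9 CPM in the Tom- libraries. The CD45 sort did not separate the classes in this way. Progenitor-like cells, which held 9.27 to 26.4 CPM of Ptprc, the CD45 gene, numbered 1519 in the library labelled CD45- Tom- and 1713 in the library labelled CD45+ Tom-, and macrophages were present in all 4. The libraries are therefore named by their labels, and the 2 pairs of Tom+ and Tom- libraries were read side by side.

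Clusters were named from marker genes, and 19 classes had a name, of which 6 were kinds of macrophage. The member genes and the other iron genes were left out of the genes that built the clusters, although genes that vary with them were not. Marco resident macrophage-like cells were led by Marco, Vsig4 and Lyve1, and Cd209f resident macrophage-like cells by Cd209f, Fcna and Lyve1. Lipid-associated macrophage-like cells were led by Gpnmb and Ctsk in their largest clusters, with smaller clusters led by cell cycle and interferon genes, and Arg1-high macrophage-like cells by Arg1 and Fn1. Marco resident cells also held Arg1, at 2914 to 4413 CPM. The Arg1-high kind lay within that range, at 3591 to 4200 CPM, so Arg1 does not set these kinds apart. Cd209f resident cells held 25.8 and 74.8 CPM of Arg1. A kind with both Arg1 and Marco and a kind led by Cxcl9, Ccr2 and major histocompatibility class II genes made up the rest. All 8 macrophage markers were detected in each of the 6 kinds. They summed to 9316 to 14490 CPM in the Marco resident, Cd209f resident and lipid-associated kinds. The sums were 9348 to 11160 CPM in Ccr2-high, 7612 to 8271 CPM in Arg1-high Marco and 4292 to 4882 CPM in Arg1-high macrophages. Levels are CPM of the UMIs summed over a class in a library, given where the class held at least 30 cells, and 18 classes had such a value. Because a UMI is counted once per captured 3′ end, levels of different genes were compared without scaling to length. Intervals are exact 95% Poisson, binomial or conditional binomial intervals and cover counting error only. Classes are said to overlap where their ranges of values over libraries do, leaving the intervals aside.

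All 8 members reached 20 CPM in at least 1 class, and by the median over libraries 6 of the 8 were highest in a macrophage kind. For 3 of these 6, Slc40a1, Trf and Fth1, the libraries of that kind overlapped a class outside the macrophages, either neutrophil-like or Cxcl13-led stromal cells or both. Of all 9982 genes that reached that level, 19.4% were highest in a macrophage kind. The class was at least 4 times the median over classes for 5 of those 6 members, against 4.33% of all genes, and 7 of 8 members were highest in a myeloid class, against 37.3% of all genes. The members did not share 1 kind. By their medians Tfrc and Hmox1 were highest in Marco resident macrophages, Slc40a1 and Trf in Cd209f resident macrophages, Ftl1 in lipid-associated macrophages and Fth1 in Arg1-high macrophages, while Slc11a1 was highest in neutrophil-like cells and Cp in lymphatic endothelial-like cells.

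**Figure D1:**
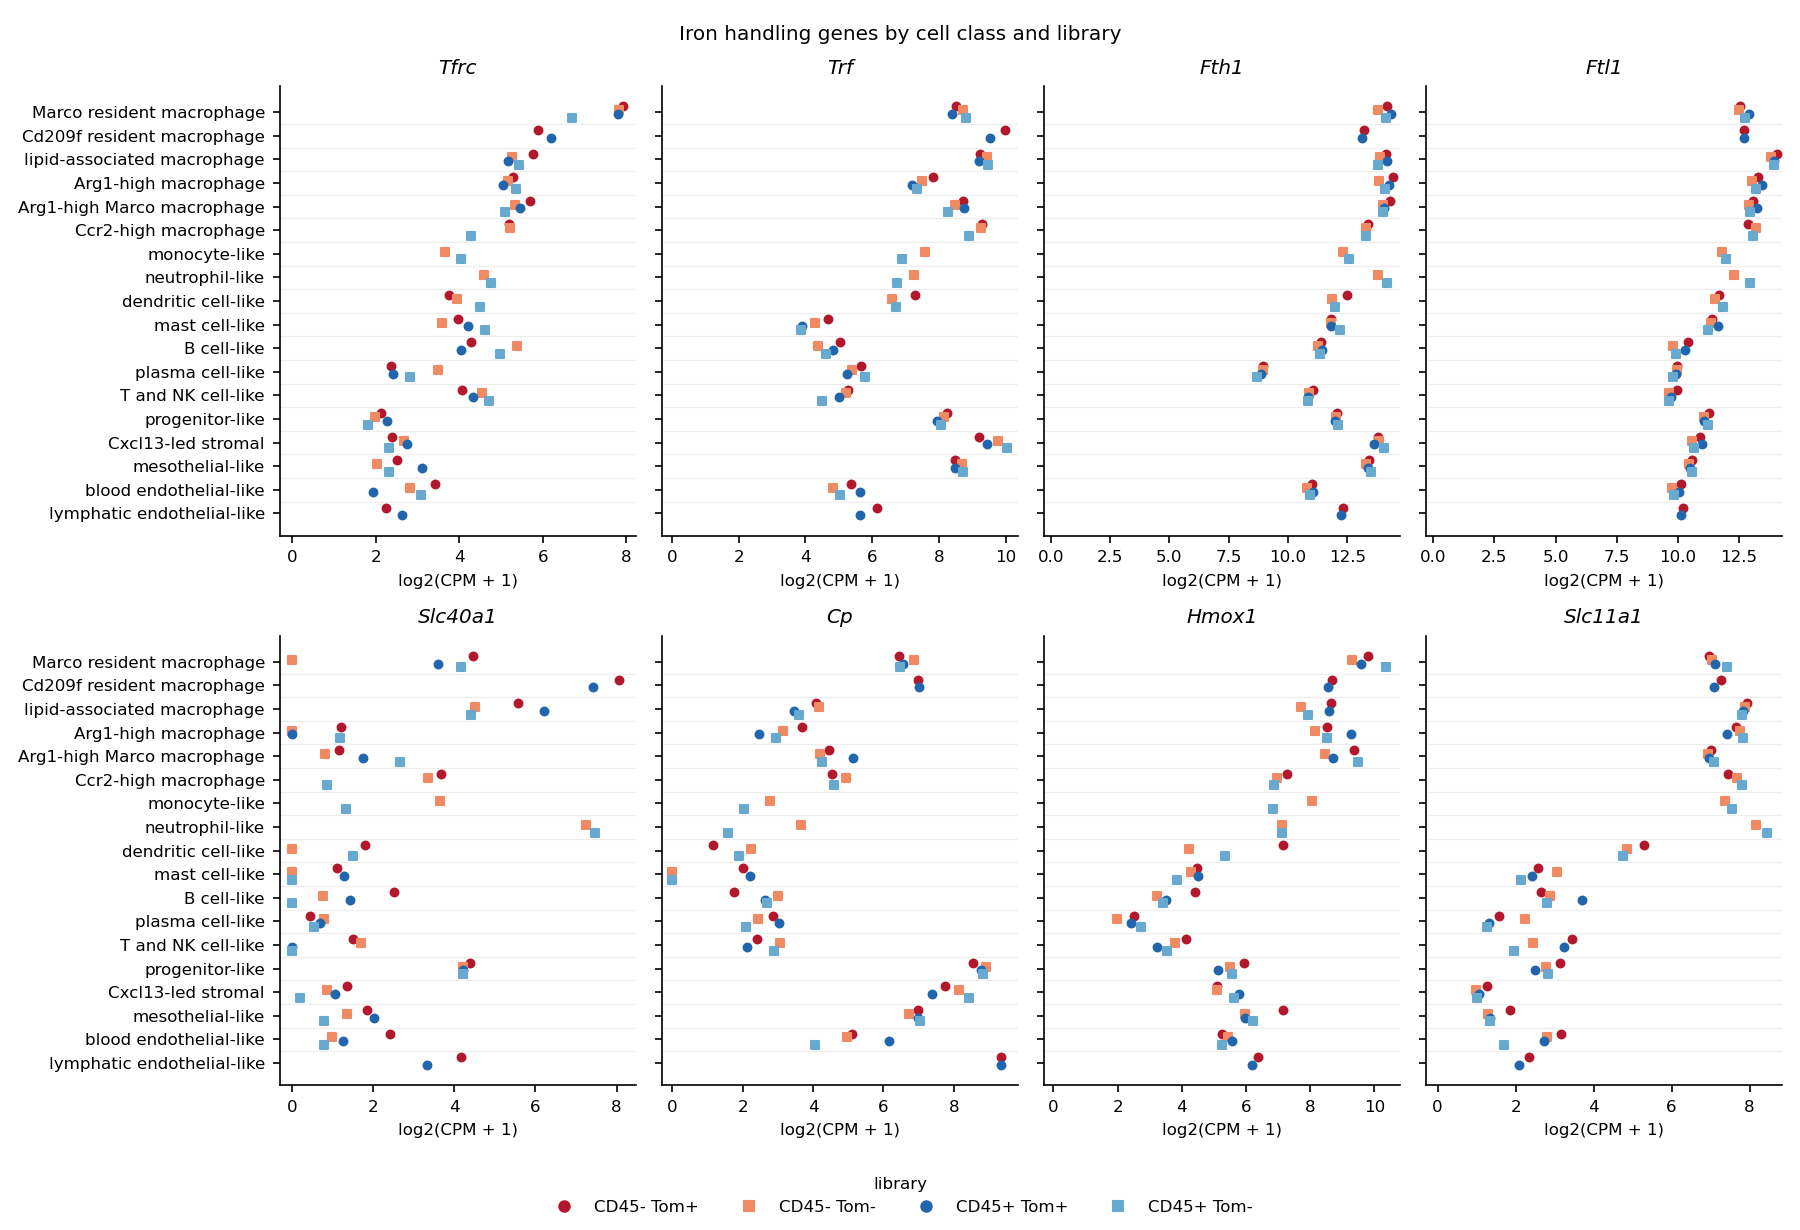
Level of each member, as log2(CPM + 1) on the horizontal axis, in 18 cell classes (rows), with 1 point per library that held at least 30 cells of the class. Tfrc stands apart in Marco resident macrophages, at 102 to 240.0 CPM, and Slc40a1 in Cd209f resident macrophages and neutrophil-like cells, at 149.9 to 266 CPM.

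The members tied to iron uptake were Tfrc and Trf, whose RNA does not measure uptake. Tfrc, at chr16:32608920-32632794 on the + strand, encodes transferrin receptor 1. Its level in Marco resident macrophages was 240.0 CPM in CD45- Tom+ (95% interval 219 to 262), 226 in CD45- Tom- (183 to 277), 220.5 in CD45+ Tom+ (192 to 252) and 102 in CD45+ Tom- (78.8 to 129.6). The last library was low, and even so its value was above those of the next class, Cd209f resident macrophages. These held 58.4 and 72.7 CPM in the Tom+ libraries. The interval of the second, 55.7 to 93.2 CPM, overlapped that of the low Marco resident library. The Arg1-high Marco, lipid-associated, Arg1-high and Ccr2-high kinds followed with medians of 35.2 to 41.0 CPM and ranges that overlapped, and progenitor-like cells were lowest, at 2.53 to 3.83 CPM. The share of Marco resident cells with a Tfrc UMI was 50.0% to 65.1%, and after every cell was thinned to 2000 UMIs it was 13.3% to 22.2%. In progenitor-like cells these shares were 5.14% to 8.57% and, thinned, 0% to 0.923%. The signal was uneven among Marco resident cells, since 37.4% to 53.7% of the Tfrc UMIs lay in the top 5% of cells, and the median cell held 36.9 to 93.8 CPM.

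Trf, at chr9:103204001-103230444 on the - strand, encodes transferrin, the iron carrier of plasma. Cd209f resident macrophages held 994 CPM in CD45- Tom+ (941 to 1048) and 736 CPM in CD45+ Tom+ (680 to 796). Stromal cells led by Cxcl13 held 585, 863, 685 and 1050 CPM, in the library order given above, and lipid-associated macrophages held 596, 686, 587 and 699 CPM. The values of Cd209f resident and lipid-associated macrophages did not overlap, and the Cxcl13-led stromal cells overlapped both. The counting interval of Cd209f resident cells in CD45+ Tom+ did overlap that of lipid-associated cells in CD45+ Tom-, at 675.5 to 723.4 CPM. Trf was widely present rather than confined to the richest cells, with a UMI in 97.8% to 100% of Cd209f resident cells and 94.6% to 98.4% of lipid-associated cells, against 8.51% to 16.7% of mast cell-like cells, the class with the lowest level. After thinning, the shares were 61.4% to 67.2% of lipid-associated cells and 2.31% to 7.89% of mast cell-like cells. Arg1-high macrophages were lower, with 226, 176, 145 and 161 CPM. Trf overlaps the gene model Gm20425 on the same strand, and reads on exons of both genes may be lost from its count.

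Ferritin was the most abundant product among the members. Fth1, at chr19:9980598-9985098 on the + strand, encodes the heavy chain, which oxidises iron on entry into the shell. Arg1-high macrophages held 22110, 14730, 19600 and 17300 CPM of Fth1 in the library order above. This class pooled a larger cluster of 536 cells, at 21290 CPM over all libraries, and a smaller cluster of 249 cells, at 8767 CPM. Marco resident macrophages held 18590, 14200, 20880 and 18150 CPM, and lipid-associated macrophages 17960, 15030, 18590 and 14360 CPM. These kinds overlapped throughout, and so did the Arg1-high Marco kind, neutrophil-like cells and Cxcl13-led stromal cells, so that Fth1 had no single highest class. It was lower in Cd209f resident macrophages, with 9463 and 8956 CPM, and lowest in plasma cell-like cells, with 416 to 495 CPM. Immunoglobulin transcripts took up 48.05% to 55.04% of UMIs in plasma cell-like cells, which lowers the CPM of every other gene there.

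Ftl1, at chr7:45457944-45459884 on the - strand, encodes the light chain, which favours formation of the iron core. In contrast with Fth1 its highest class stood apart. Lipid-associated macrophages held 16810, 14450, 15410 and 15770 CPM, and no library overlapped Arg1-high macrophages, with 9988, 8483, 11110 and 9353 CPM. The Ccr2-high and Arg1-high Marco kinds overlapped the Arg1-high kind. Marco resident macrophages held 5962, 5811, 7775 and 6868 CPM. T and NK cell-like cells had the lowest median, 821 CPM, with a range that overlapped plasma cell-like cells. That overlap depends on the immunoglobulin share of plasma cell-like cells given above. Within each library Ftl1 was 1.39- to 1.70-fold higher in lipid-associated than in Arg1-high macrophages, while Fth1 differed by log2 ratios of -0.30 to 0.03. Ftl1-ps1, a near-identical copy in the reference, received 476 to 1544 UMIs in lipid-associated macrophages beside 47739 to 181608 UMIs of Ftl1, and reads that fit both would be counted for neither.

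The balance of the chains differed between classes. Lipid-associated macrophages held 1.07, 1.04, 1.21 and 0.911 Fth1 UMIs per Ftl1 UMI, in the library order above, and Marco resident macrophages 2.44 to 3.12. Cd209f resident macrophages lay between them, at 1.41 and 1.33. The highest ratios were outside the myeloid lineage. Cxcl13-led stromal cells held 6.20 to 10.4 Fth1 UMIs per Ftl1 UMI and mesothelial-like cells 7.08 to 7.50, against 1.76 to 1.94 in progenitor-like cells. Plasma cell-like cells alone stood below 1 in all 4 libraries, at 0.460 to 0.495. Both chains together made up 2.95% to 3.48% of all UMIs in lipid-associated macrophages and a median of 2.48% in Marco resident macrophages. The share was 0.132% to 0.151% in plasma cell-like cells, whose total includes their immunoglobulin transcripts.

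**Figure D2:**
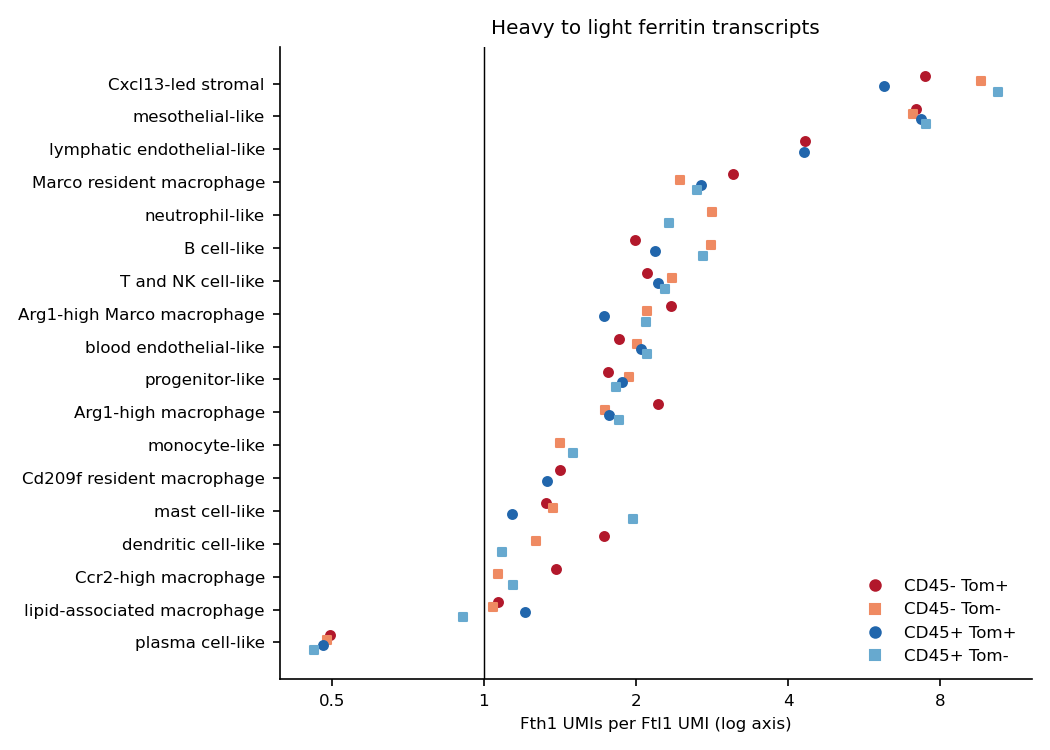
Fth1 UMIs per Ftl1 UMI (log axis) in each cell class, with 1 point per library and classes in the order of their medians, and the line at 1 marking equal numbers. Macrophage kinds lie between 0.911 in a lipid-associated library and 3.12 in a Marco resident library, while Cxcl13-led stromal and mesothelial-like cells lie between 6.20 and 10.4.

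The members tied to iron export were Slc40a1 and Cp, again as RNA only. Slc40a1, at chr1:45908068-45926523 on the - strand, encodes ferroportin. Cd209f resident macrophages held 266 CPM in CD45- Tom+ and 169.9 CPM in CD45+ Tom+, from 356 and 145 UMIs. The top 5% of cells held 55.3% and 31.0% of these UMIs, and by the median cell, at 56.8 and 97.3 CPM, the order of the 2 libraries turned. Neutrophil-like cells held 149.9 CPM in CD45- Tom- and 175 CPM in CD45+ Tom-, from 52 and 87 UMIs. The 2 classes overlapped, but no library held at least 30 cells of both, so they were not compared within a library. Lipid-associated macrophages followed with 46.7, 21.8, 73.3 and 20.2 CPM, and progenitor-like cells with 19.98, 17.5, 17.6 and 17.7 CPM. Marco resident macrophages held 20.9, 0, 11.1 and 16.98 CPM, overlapping progenitor-like cells. The 0 stood for no UMI in 30 cells and allowed up to 7.15 CPM, the level that 3 UMIs would give. Arg1-high macrophages held 1.33, 0, 0 and 1.29 CPM, so that the kinds ran from the highest class to among the lowest.

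Slc40a1 was carried by a minority of cells in most classes. A UMI was present in 52.9% and 67.4% of Cd209f resident cells (27.9% and 19.6% after thinning to 2000 UMIs) and in 32.5% and 38.3% of neutrophil-like cells (26.2% and 25.8% thinned). In T and NK cell-like cells the share was 0% to 1.43%, and in Arg1-high macrophages 0% to 2.56%. Among Marco resident cells of CD45- Tom+, all 43 UMIs came from the top 5% of cells, and 4.76% of the 126 cells held any. Neutrophil-like cells were compared with monocyte-like cells in the Tom- libraries, where both classes were large enough. Slc40a1 was 12.9-fold higher in neutrophil-like cells of CD45- Tom- (log2 ratio 3.69, 2.47 to 5.20). The 6 monocyte UMIs behind that ratio lay in 2.08% of 48 cells, an unevenness that the interval does not cover. In CD45+ Tom- the ratio was 6.83 on the log2 scale, resting on a single monocyte UMI, with an interval of 4.31 to 12.15. Past 1.5-fold, a threshold that 62.4% and 64.2% of genes passed between these classes, were 4 of 6 and 5 of 7 members tested. Beside it Fth1 was 2.83- and 3.06-fold higher and Slc11a1 1.77- and 1.90-fold higher in neutrophil-like cells.

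Cp, at chr3:19957054-20009145 on the + strand, encodes ceruloplasmin, a copper oxidase that converts iron leaving the cell to the form transferrin binds. It was highest outside the leukocytes. Lymphatic endothelial-like cells held 646 and 651 CPM in the Tom+ libraries, and the Tom- libraries held 1 and 0 such cells. Progenitor-like cells held 369, 478, 440 and 451 CPM and Cxcl13-led stromal cells 215, 285, 166 and 346 CPM. The class sums of these 3 classes did not overlap, but progenitor-like cells were mixed. Their clusters ran from 76.2 to 623 CPM over all libraries, beside 642 CPM in lymphatic endothelial-like and 270 CPM in Cxcl13-led stromal cells. Compared with blood endothelial-like cells, Cp was 19.3- and 9.29-fold higher in lymphatic endothelial-like cells. The macrophage kind with most Cp was the Cd209f resident kind, with 126 and 128 CPM, followed by Marco resident macrophages with 85.7, 117, 93.6 and 88.0 CPM. Lipid-associated macrophages held 10.1 to 16.95 CPM and Arg1-high macrophages 4.57 to 12.0 CPM.

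Markers of stromal cells were measured beside Cp in macrophages, since free RNA can add to a count. Progenitor-like cells held 30.9 to 35.0 Cp UMIs per 1000 UMIs of Dcn, one of their markers. Cd209f resident macrophages held 2400 and 3206 and Marco resident macrophages 626 to 1979. Classes with little Cp varied too. Lipid-associated macrophages held 580, 167, 435 and 115 in the library order above, and plasma cell-like cells 331, 18.9, 498 and 51.9. Measured against Ccl21a, a marker of lymphatic endothelial-like cells, Cd209f resident macrophages held 21000 and 54500 Cp UMIs per 1000 and lymphatic endothelial-like cells 55.4 and 64.7. The part of free RNA in the Cp of macrophages was not tested. Cp overlaps Hps3 on the opposite strand.

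Hmox1 and Slc11a1 act on iron from engulfed cells and in phagosomes. Hmox1, at chr8:75093621-75100589 on the + strand, encodes haem oxygenase 1, the inducible enzyme that opens the haem ring and frees its iron. Marco resident macrophages held 897, 624, 772 and 1324 CPM, in the library order above, Arg1-high Marco macrophages 650.4, 350.2, 419 and 717 CPM, and Cd209f resident macrophages 407 and 377 CPM. Arg1-high and lipid-associated macrophages held 281 to 620.1 and 209.7 to 397.5 CPM, and each of these kinds overlapped the next. Ccr2-high macrophages, at 116 to 154 CPM, lay below all of these kinds. Within the Arg1-high class the larger cluster held 466 CPM over all libraries and the smaller cluster 108 CPM. A UMI was present in 80.0% to 94.4% of Marco resident cells (36.7% to 58.7% thinned), against 5.20% to 10.4% of T and NK cell-like cells (1.73% to 2.95% thinned). The sums leaned on few cells. In Marco resident macrophages the top 5% of cells held 42.0% to 66.0% of the Hmox1 UMIs. The median cell held 397, 283, 397 and 265 CPM, which puts CD45+ Tom-, the highest library by its sum, lowest.

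Slc11a1, at chr1:74375195-74386062 on the + strand, encodes NRAMP1, which pumps metal ions out of the phagosome. Neutrophil-like cells held 288 and 350.3 CPM and did not overlap lipid-associated macrophages, with 243, 233, 227 and 224 CPM. The other macrophage kinds and monocyte-like cells lay between 121 and 225 CPM. Cxcl13-led stromal cells held 0.969 to 1.41 CPM and mesothelial-like cells 1.46 to 2.61 CPM. Slc11a1 thus separated macrophages, monocytes and neutrophils from the stromal classes.

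Cd209f and Marco resident macrophages, which share resident macrophage markers, were then compared within the Tom+ libraries, the only ones with at least 30 cells of both. Slc40a1 was 12.7-fold higher in Cd209f resident cells in CD45- Tom+ (log2 ratio 3.67, 3.21 to 4.16) and 15.3-fold higher in CD45+ Tom+ (3.94, 3.06 to 4.97). Trf was 2.73- and 2.23-fold higher. In the other direction Tfrc was 4.11- and 3.04-fold lower in Cd209f resident cells, Fth1 1.96- and 2.33-fold lower and Hmox1 2.20- and 2.05-fold lower. The exporter and the carrier were thus on the opposite side from the receptor, the storage chain and the haem enzyme, in both libraries. In all, 5 of 8 members passed 1.5-fold in each library, in either direction, where 31.4% and 35.0% of all genes did. Ftl1 did not keep a direction, with log2 ratios of 0.17 and -0.21. For Tfrc the sums differed in both libraries, but the share of cells with a UMI kept its direction after thinning in CD45- Tom+ only. In CD45- Tom+ a Tfrc UMI was present in 48.5% of Cd209f and 65.1% of Marco resident cells (7.35% and 22.2% thinned). In CD45+ Tom+ the shares were 56.5% and 61.1%, and after thinning they turned to 23.9% and 20.8%.

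The weaker side of that contrast was Hmox1. With barcodes kept from 500 genes and up to 20% mitochondrial UMIs, its log2 ratios turned to 0.39 and 0.20. Mast cell markers were also present in Cd209f resident macrophages, with all 8 detected at a summed 134.8 and 512.5 CPM, and in Marco resident macrophages at 32.4 to 511.5 CPM. Genes of dissociation stress summed to 12760 and 17230 CPM in Cd209f resident and 7315 to 8387 CPM in Marco resident macrophages. Their part in the difference was not tested.

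**Figure D3:**
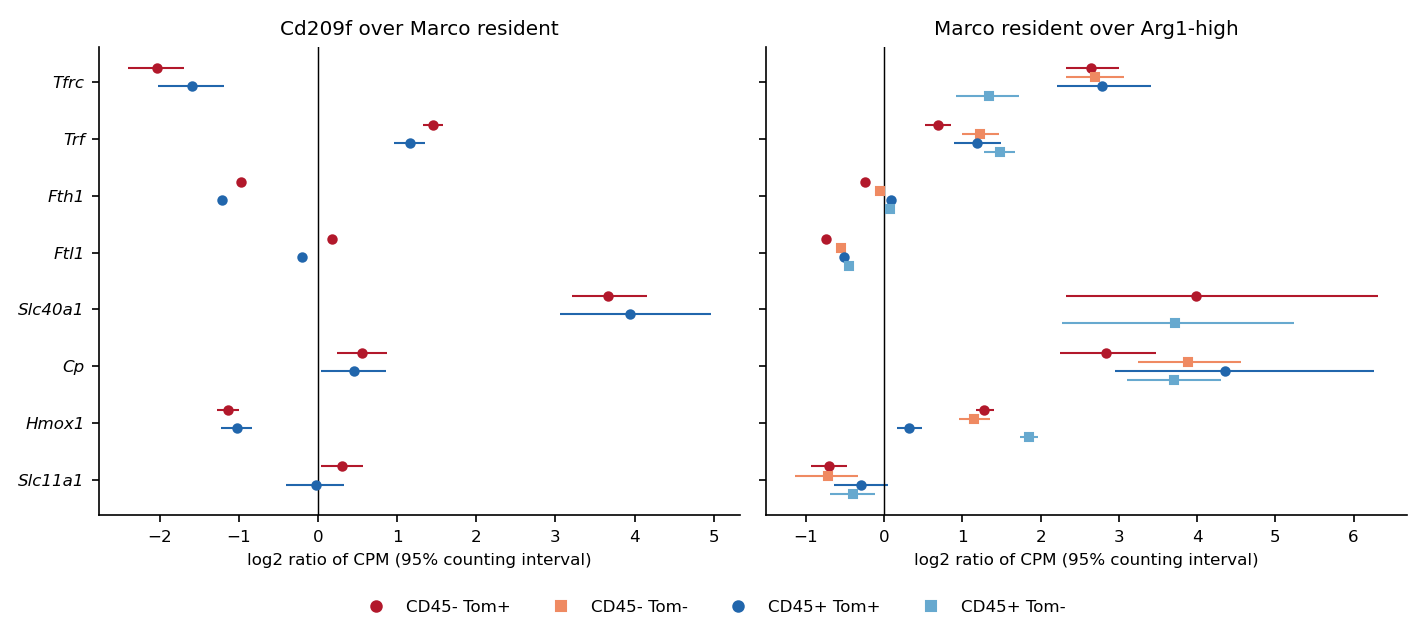
Log2 ratio of the summed level of each member between macrophage kinds within a library, with 95% counting intervals. On the left, for Cd209f over Marco resident macrophages, Slc40a1 lies at 3.67 and 3.94 and Tfrc at -2.04 and -1.60, and on the right, for Marco resident over Arg1-high macrophages, Tfrc lies at 1.34 to 2.79 in the 4 libraries and Slc40a1 has no point in the 2 libraries with 0 UMIs.

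Marco resident and Arg1-high macrophages were compared in all 4 libraries. Tfrc was higher in Marco resident cells at log2 ratios of 2.65, 2.70, 2.79 and 1.34, Cp at 2.84 to 4.36, Trf at 0.69 to 1.48 and Hmox1 at 0.32 to 1.85. Ftl1 went the other way in each library, at -0.74 to -0.45, and Fth1 stayed between -0.25 and 0.09. Past 1.5-fold were 3 to 6 of 7 members tested per library, against 21.2%, 29.7%, 25.2% and 23.6% of all genes. Between lipid-associated and Arg1-high macrophages the members differed less. Trf was higher in lipid-associated cells in each library, at log2 ratios of 1.40 to 2.12, and Tfrc at 0.06 to 0.48, and 2 or 3 of 6 or 7 members tested passed 1.5-fold, against 34.8%, 38.8%, 37.9% and 37.4% of all genes, a share close to the background. Slc40a1 was higher in lipid-associated cells at log2 ratios of 5.13 and 3.97 in CD45- Tom+ and CD45+ Tom-, and in the other 2 libraries Arg1-high macrophages had no UMI.

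Whether the members differed between Tom+ and Tom- libraries was examined within each class. In lipid-associated macrophages Slc40a1 stood at 46.7 CPM in CD45- Tom+ and 21.8 in CD45- Tom-, and at 73.3 in CD45+ Tom+ and 20.2 in CD45+ Tom-. Both Tom+ libraries were above both Tom- libraries. The log2 ratios were 1.10 (0.74 to 1.48) and 1.86 (1.53 to 2.20), or 2.14- and 3.64-fold. Hmox1 stood at 397.5 against 209.7 CPM and at 379.5 against 244.6 CPM, with log2 ratios of 0.92 and 0.63. Of 7 members tested in these cells, 2 passed 1.5-fold in the same direction in both pairs, where 1.15% of all 5310 genes tested did and 0.885% did upwards. Within a pair, 2.63% and 3.38% of genes passed. The other 5 members tested stayed between -0.27 and 0.52 on the log2 scale.

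The difference in Slc40a1 lay in few cells. A UMI was present in 28.5%, 17.5%, 31.7% and 19.3% of lipid-associated cells, in the library order above, and after thinning in 7.78%, 4.00%, 10.1% and 4.27%. The top 5% of cells held 57.8% to 66.7% of its UMIs, and the median cell held none. Within the cluster led by Gpnmb the log2 ratios were 1.97 and 1.84, and within the cluster led by Mmp12 they were 0.53 (0.05 to 1.03) and 2.73 (2.03 to 3.52). Hmox1 held 0.69 and 0.63 in the first and 1.11 and 0.95 in the second. For Hmox1 the median lipid-associated cell held 197 against 139 CPM in the libraries labelled CD45-, and 153 against 152 CPM in the libraries labelled CD45+, where the sums differed through the richest cells. Plasma cell RNA moved with the Tom label in the same cells. Immunoglobulin transcripts took up 2.43% and 3.87% of UMIs in the Tom+ libraries and 0.258% and 0.209% in the Tom- libraries, and Slc40a1 in plasma cell-like cells was 0.362 to 0.738 CPM. Cd209f, the marker of the kind with most Slc40a1, was at 3.15, 0, 0.402 and 0.424 CPM in lipid-associated macrophages, in the library order above. The part of RNA from other cells in the Slc40a1 difference was not tested. With immunoglobulin, tdTomato, mitochondrial and ribosomal protein genes left out of the total, the log2 ratios of Slc40a1 were 1.12 and 1.91.

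**Figure D4:**
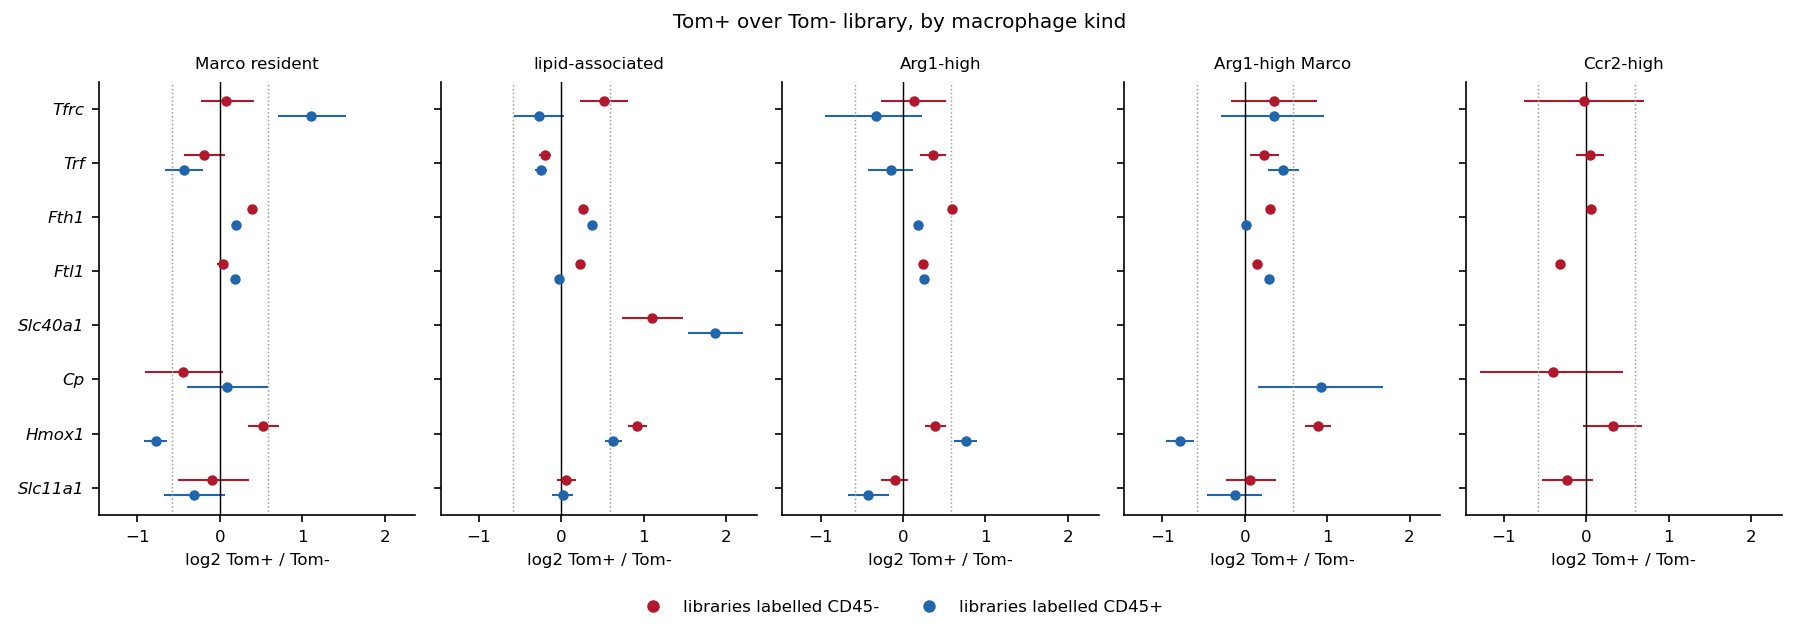
Log2 ratio of each tested member between the Tom+ and the Tom- library in 5 macrophage kinds, for the libraries labelled CD45- (red) and CD45+ (blue), with 95% counting intervals and dotted lines at 1.5-fold. In lipid-associated macrophages Slc40a1 and Hmox1 lie beyond the dotted line in both pairs, at 1.10 and 1.86 and at 0.92 and 0.63, whereas Hmox1 in Arg1-high Marco macrophages lies at 0.89 and -0.78.

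In the other classes no member passed 1.5-fold in the same direction in both pairs, except Tfrc in B cell-like cells. There it stood at 18.4 against 40.8 CPM and at 15.5 against 30.2 CPM, with log2 ratios of -1.15 (-1.83 to -0.50) and -0.96 (-2.16 to 0.05). Among 4 members tested in B cell-like cells this was the only one, where 3.58% of genes passed the same way and 2.40% did downwards. Immunoglobulin transcripts took up 9.87% against 1.53% and 6.59% against 1.48% of UMIs in these cells, and their part in the difference was not tested. In Marco resident macrophages Tfrc had log2 ratios of 0.08 and 1.11 and Hmox1 0.52 and -0.78, and 0 of 7 members passed in both, against 2.27% of genes. By the median cell Hmox1 was higher in the Tom+ library of both pairs, at 397 against 283 and 397 against 265 CPM, and with barcodes kept from 500 genes and up to 20% mitochondrial UMIs its second ratio was 0.06. In Arg1-high macrophages Fth1 had log2 ratios of 0.59 and 0.18 and Hmox1 0.39 and 0.76, and 0 of 6 members passed in both, against 0.779%. In progenitor-like cells, the largest class, 0 of 5 members passed in either pair, against 1.20% and 2.23% of genes within a pair and 0.538% in both. Their Cp levels were 369 against 478 CPM and 440 against 451 CPM. In the other 7 classes with both pairs, 0 members passed in both, where the share of genes was 1.32% in Arg1-high Marco macrophages, 2.10% in Cxcl13-led stromal cells and 0.461% in mesothelial-like cells. It was 5.29% in T and NK cell-like, 3.80% in blood endothelial-like, 4.86% in mast cell-like and 2.55% in plasma cell-like cells.

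The wider pathway was described with 62 other iron genes in 7 lists, of which 48 reached 20 CPM in a class. A macrophage kind was the highest class for 13 of the 48, and 5 of these stood at 4 times or more the median over classes, where 19.4% and 4.33% of all genes did. The counts by list that follow are read against the same shares. Among genes of haem scavenging and breakdown this held for 3 of 8. Cd163, the receptor for haemoglobin bound to haptoglobin, had a median of 126 CPM in Cd209f resident and 64.7 CPM in Marco resident macrophages, against 5.77 CPM in lipid-associated and 0.524 CPM in Arg1-high macrophages. The biliverdin reductases Blvra and Blvrb, which act on the product of haem oxygenase, were highest in lipid-associated macrophages, with medians of 163 and 368.5 CPM. Slc48a1, which carries haem out of the phagolysosome, was also highest there, at 148 CPM, and Lrp1, the receptor for haem bound to hemopexin, was highest in progenitor-like cells, at 1140 CPM.

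Among 10 genes of uptake and reduction, 1 was highest in a macrophage kind and none at 4-fold. Slc39a8, a metal importer, was highest in mesothelial-like cells at 357 CPM, against 0.767 to 6.74 CPM in the 6 macrophage kinds. Steap3, an endosomal iron reductase, was highest in progenitor-like cells at 209 CPM, as was Slc39a14, another importer, at 43.7 CPM. Slc11a2, which carries iron out of the endosome, was highest in Ccr2-high macrophages at 38.4 CPM. Of 3 storage genes, none was highest in a macrophage kind. Ncoa4, which delivers ferritin for breakdown, was highest in mesothelial-like cells at 464 CPM, and the iron chaperones Pcbp1 and Pcbp2 varied little, with highest classes at 1.41 and 1.34 times the median. Both export genes tested were highest outside macrophages. Heph, a ferroxidase like Cp, was at 135 CPM in progenitor-like cells and 0 to 0.586 CPM in the 6 macrophage kinds. Abcg2, an exporter of haem and other compounds, was at 178 CPM in blood endothelial-like cells.

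Among 5 sensing genes, Aco1, which encodes iron regulatory protein 1, was highest in Marco resident macrophages at 49.6 CPM, and Ireb2, for the second such protein, ranged little, with a highest class at 1.32 times the median. Fbxl5, which marks that second protein for breakdown when iron is plentiful, was at 773 CPM in neutrophil-like cells, 18.1 times the median, and Hfe was highest in dendritic cell-like cells at 116 CPM. Of 12 mitochondrial genes, 4 were highest in a macrophage kind and 1 at 4-fold. That was Alas1, the first enzyme of haem synthesis, at 167 CPM in Arg1-high macrophages and 41.4 CPM in Marco resident macrophages. Slc25a37, Iscu and Cisd2 were highest in neutrophil-like, mesothelial-like and monocyte-like cells. Among 8 transcription factors and their targets, 2 were highest in a macrophage kind and 1 at 4-fold. Gclm, a subunit of the enzyme that starts glutathione synthesis and a target of NRF2, was at 166 CPM in Arg1-high macrophages. Nfe2l2, which encodes NRF2, and Txnrd1 were highest in neutrophil-like cells at 648 and 353 CPM, and Bach1, the haem-sensing repressor of Hmox1, in monocyte-like cells at 291 CPM.

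**Figure D5:**
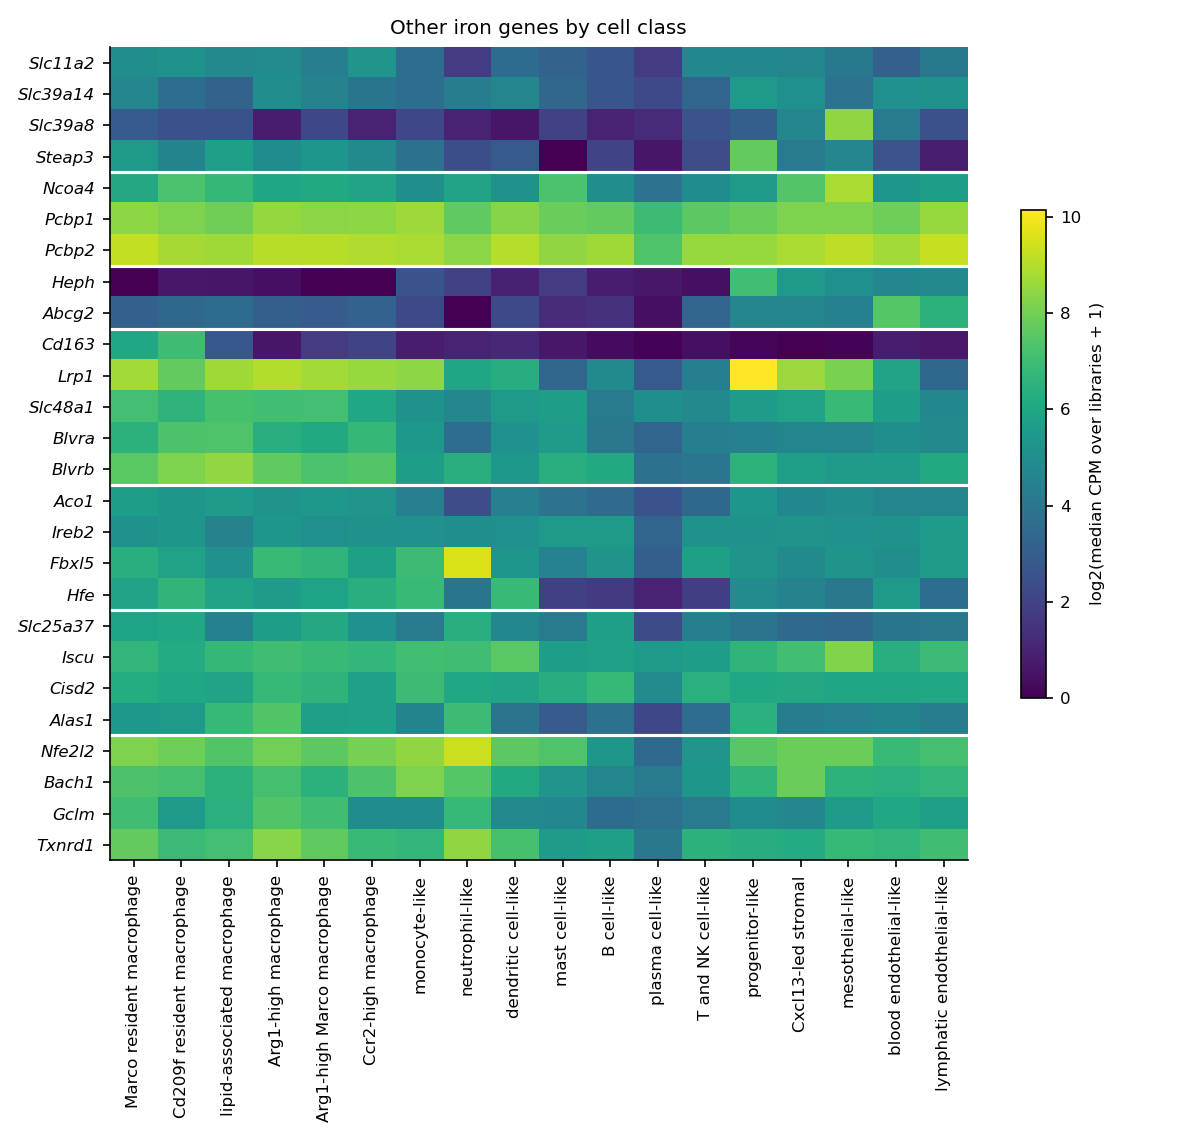
Median level over libraries, as log2(CPM + 1) in colour, of 26 other iron genes (rows, with white lines between lists) in 18 cell classes (columns). Cd163 is bright in the 2 resident macrophage kinds, with medians of 126 and 64.7 CPM, and Slc39a8 in mesothelial-like cells, at 357 CPM.

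Between Tom+ and Tom- lipid-associated macrophages, 1 of 32 other iron genes passed 1.5-fold in both pairs, where 1.15% of all genes did. Gclm stood at 113 against 53.3 CPM and at 131 against 58.8 CPM, with log2 ratios of 1.09 and 1.16. The median ratio over these 32 genes was 0.03 and 0.01, beside -0.02 and -0.05 over all genes. In Arg1-high Marco macrophages Txnrd1 was the 1 of 30 that passed in both, where 1.32% of all genes did, at 247 against 161 CPM and 245.5 against 156 CPM. No gene of these lists passed in both pairs in Arg1-high macrophages, progenitor-like cells, mesothelial-like cells or Cxcl13-led stromal cells, where 0.779%, 0.538%, 0.461% and 2.10% of all genes did.

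The genes with the most similar pattern were ranked by Pearson's r of log2(CPM + 1) over 62 class and library values, among 7149 genes. These values share libraries and cells, so r is a description. Slc40a1 had no close match, its highest being Reps2, Selenop and P2ry13 at 0.637, 0.632 and 0.631. Trf was most like Plxnb2, Serpinb8 and Npc2 (0.909 for the first), Hmox1 like Lamp1, Mfsd5 and Acp2 (0.939), and Fth1 like Tpi1, Bri3 and Cstb (0.939). Ftl1 was most like its copy Ftl1-ps1 (0.961), then Sirpa and Atp6v0b. Tfrc was most like Cd84, Nckap1l and C3ar1 (0.881), Slc11a1 like Igsf6, C5ar1 and Cd300lb (0.974), and Cp like Igfbp4, Colec12 and Rcn3 (0.888). Between members r ran from -0.26 for Tfrc with Cp to 0.89 for Ftl1 with Slc11a1, and Slc40a1 stood at 0.22 with Tfrc.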

How the data were processed

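Single-cell RNA was captured with 10x 3′ v3.1 chemistry and sequenced on a DNBSEQ-G400RS. Per the submitters' processing notes the authors used Cell Ranger 3.0.2 and mm10, and they deposited raw UMI counts per gene and barcode for 4 libraries. From these counts, barcodes with 1000 to 7000 genes and under 8% mitochondrial UMIs were kept, and doublets were left out by the highest Scrublet scores (run in scanpy) at 0.8% per 1000 barcodes, 54 to 427 per library. Cells were clustered with scanpy 1.11.5 (2000 variable genes, 30 components, 15 neighbours, Leiden resolution 1), and myeloid cells were clustered again. No column was left out, and 826 cells (5.95%) stayed unnamed. Each class was summed per library. Genes were compared at a mean of at least 20 CPM over the 2 sums, and log2 ratios carry conditional exact intervals (scipy 1.17.1). The ratio and its interval were tested on simulated Poisson counts, the model that the interval assumes. That test cannot show how the interval fares where few cells hold most UMIs. Named genes were the 8 members, up to 4 per iron list by mean level in macrophage kinds plus any raised 4-fold in one, and the 3 most similar genes per member. Members, lists and class rules were chosen with earlier results of these data known. Alternatives were doublets kept, looser barcode limits, Leiden 0.5 and 2, thinning to 2000 UMIs, equal cell weights, another total, no shared barcodes, other minima (10 UMIs, 100 CPM) and 2-fold. Lipid-associated sub-clusters were added after seeing the data.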

Additional observations from a re-analysis of the deposited data

Results flagged for a closer look

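Hmox1 in Arg1-high Marco macrophages went in opposite directions in the 2 pairs of libraries. The log2 ratio of Tom+ over Tom- was 0.89 in the libraries labelled CD45-, from 650.4 and 350.2 CPM, and -0.78 in the libraries labelled CD45+, from 419 and 717 CPM. The difference was not tested, since each group is 1 library. The median cell held 280.4, 262, 198 and 265 CPM in the Tom+ and Tom- libraries labelled CD45- and then those labelled CD45+, and the top 5% of cells held 51.8%, 23.9%, 36.9% and 52.8% of the Hmox1 UMIs.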

How the results depend on the processing

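No paired analysis was possible because the labels give no replicate numbers and each group is 1 library. With barcodes kept from 500 genes and up to 20% mitochondrial UMIs, Hmox1 changed direction: its Tom+ over Tom- ratio in Marco resident macrophages of the libraries labelled CD45+ was 0.06, and its ratio of Cd209f over Marco resident macrophages was 0.39 and 0.20 (log2). The number of member and macrophage kind combinations past 1.5-fold in both pairs, 2 as reported, was 5 under those limits, 5 at Leiden 0.5 and 1 at Leiden 2. The share of genes past the fold between Tom+ and Tom- moved in lipid-associated macrophages, for CD45- and CD45+ in turn, to 17.3% and 17.1% with a minimum of 10 UMIs, 0.717% and 1.13% at 2-fold, 24.9% and 28.4% after thinning, 6.68% and 8.57% without shared barcodes, and 2.17% for CD45+ at 100 CPM. In Arg1-high macrophages it moved to 17.9% and 26.1%, 0.645% and 1.15%, and 25.2% and 35.0% under the first 3, and 1.80% and 1.69% at 100 CPM. Slc40a1 in lipid-associated macrophages kept its direction in each alternative run, at 0.53 to 1.97 (CD45-) and 1.26 to 2.73 (CD45+), and fell under 1.5-fold for the Mmp12-led cluster of CD45-. Of the remaining values 398 stayed within their counting interval or the spread between libraries and 238 moved without turning. With doublets kept, Cd209f and Marco resident cells formed 1 class, which has no value here, and 4 rather than 6 members were highest in a macrophage kind. The causes were not tested. Depth limits Slc40a1: in Marco resident and Arg1-high macrophages it rests on 0 to 43 UMIs per library.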
